A study of Homo sapiens with 16 samples.

Results

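The mRNAs described here come from 7 genes of cell adhesion and the extracellular matrix: ITGB1, CD44, CDH2, DCBLD2, THBS1, CCN2 (older name CTGF) and ITIH5. They were chosen because earlier results of the same arrays showed them in HuR immunoprecipitates against IgG immunoprecipitates under either siRNA, so the HuR against IgG values below describe the choice and carry no test. All probes of the 7 genes were taken, 18 of 47231 on the array. A fit across probes used those whose detection p, a comparison with the array's negative controls, was under 0.01 on 4 or more of the 16 arrays. That filter left 1438 probes, 8 of them of these genes and at least 1 per gene.

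The RNA came from cells of U2OS, a human osteosarcoma line, synchronized in the cell cycle, in a phase that no label states sample by sample. For 48 hours the cells carried a control siRNA or an siRNA against exon sequence of MIR100HG, the host gene of a microRNA cluster, which also gives long noncoding RNAs, and the treatment protocol spells that target differently (mIR-110HG). Lysates were then precipitated with an antibody to HuR or with IgG, the background for RNA that sticks to beads, and the 4 groups held 4 biological replicates each, 1 single-colour bead array per sample. They are called IgG-control, IgG-MIR100HG, HuR-control and HuR-MIR100HG arrays below, by antibody and siRNA. The title of the series asks how MIR100HG transcripts bear on the binding of HuR to its mRNAs. Input RNA was not analysed here, so more of an mRNA in the cells and a larger bound share of it cannot be told apart.

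HuR, encoded by ELAVL1, binds U-rich and AU-rich stretches, mostly in 3′ untranslated regions, and is known for keeping such mRNAs stable and for affecting their translation. Integrins and CD44 tie cells to the matrix, cadherins tie cells to each other, and matricellular proteins such as thrombospondin-1 and CCN2 are secreted into the matrix and modulate that attachment rather than build the scaffold. Adhesion and matrix genes of this kind are prominent in mesenchymal cells and in tumours derived from them.

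The arrays carried little signal. Neither MIR100HG nor ELAVL1 was detected at p under 0.05 on any of the 16 arrays, so the depletion could not be checked, and 0 of 10 osteoblast and mesenchymal markers, 1 of 5 epithelial markers (KRT18) and 0 of 4 blood markers with a probe were detected at p under 0.01 on any array, so neither could the cell type. Replicate 2 of HuR-MIR100HG stood apart from its group, with 2592 probes detected at p under 0.01 and intensities up to 6370, against 563 to 824 detected probes and intensities up to no more than 334 in replicates 1, 3 and 4. That array read above every HuR-control array for 83.7% of all probes past the filter, and for 7 of the 8 described here. The HuR-control arrays had 752 to 1407 detected probes. The arrays were normalized together, so leaving that replicate out also moved values of the other groups. HuR minus IgG differences of the 7 genes and main counts of calls are given with and without it, where the probe still passed the filter. Lower bounds with control siRNA are given with all 16 arrays alone.

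The signal of each gene rested on few probes. ITGB1 had 4 probes on the array and 1 past the filter, CD44 3 and 1, ITIH5 5 and 1, CCN2 2 and 1, DCBLD2 2 and 2, and THBS1 and CDH2 1 each. The 10 dim probes had deposited intensities between 34 and 76, and 7 of them were detected at p under 0.05 on no array. One dim ITGB1 probe (ILMN_1714820, designed on NM_033668) was detected on 3 of 16 arrays, all of them HuR-control (replicates 2, 3 and 4, at 66, 65 and 59). One dim ITIH5 probe (ILMN_1793695) was detected on 4 of 16 arrays: replicates 1 and 2 of IgG-control, 4 of IgG-MIR100HG and 1 of HuR-MIR100HG. None of these was a HuR-control array. The second CCN2 probe (ILMN_2115125) was detected on 1, replicate 2 of HuR-MIR100HG, at 76. Array by array, 8 or 9 of the 18 probes were detected in HuR-control, 3 to 9 in HuR-MIR100HG, 1 to 4 in IgG-control and 0 to 3 in IgG-MIR100HG. CD44, THBS1, CDH2 and 1 DCBLD2 probe (ILMN_2174127) were detected at p under 0.01 on HuR arrays alone, so passing the filter already required them to be bright there. For CD44, CDH2, ITGB1, ITIH5 and both DCBLD2 probes the 4 HuR-control arrays alone were enough to pass, and THBS1 passed on exactly 4 arrays, 3 of HuR-control and replicate 2 of HuR-MIR100HG. A probe admitted through HuR-control is the more likely to be called lower with MIR100HG siRNA, and counts of such calls are no support on their own.

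**Figure D1:**
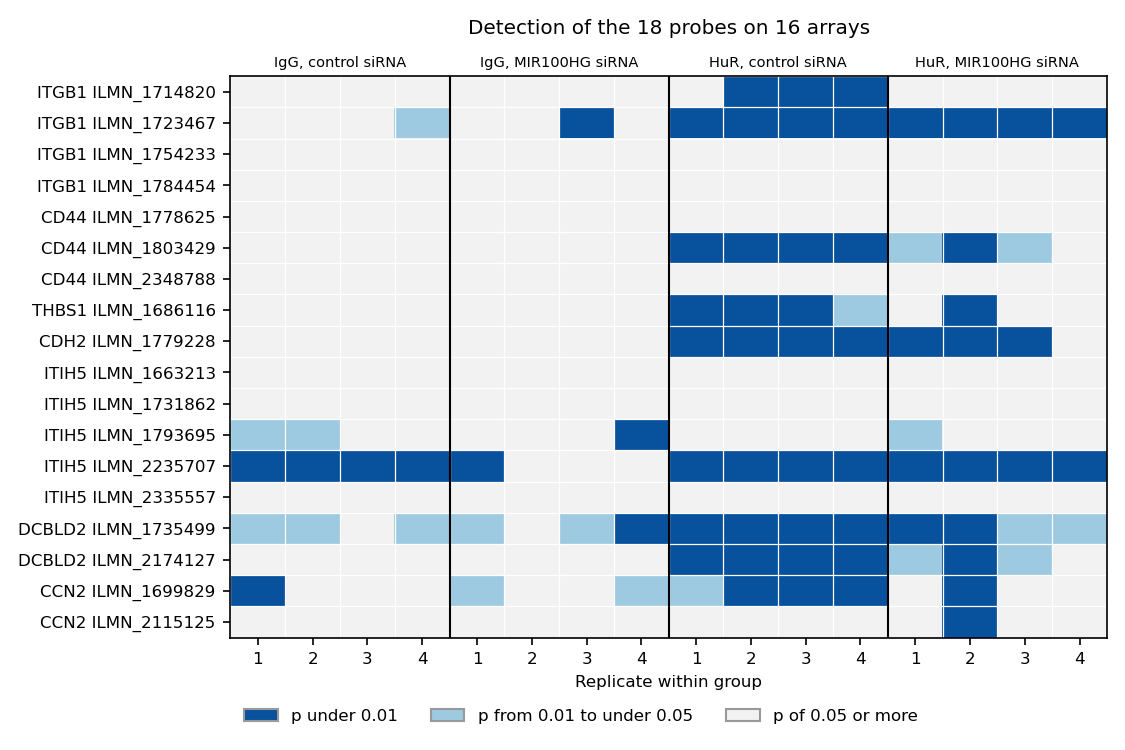
Detection of the 18 probes (rows) on the 16 arrays (columns, grouped by immunoprecipitate and siRNA), with dark blue for a detection p under 0.01, light blue for a p from 0.01 to under 0.05 and grey for a p of 0.05 or more. The HuR-control arrays hold 8 or 9 detected probes each, and 7 rows, all of ITGB1, CD44 or ITIH5, are grey throughout.

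ITGB1, the integrin beta-1 chain that pairs with many alpha chains as a receptor for fibronectin, collagen and laminin, was detected on every HuR array and on 1 of 4 arrays of each IgG group. Its probe (ILMN_1723467, NM_002211) read 525, 773, 580 and 247 in replicates 1 to 4 of HuR-control and 52, 54, 48 and 55 in replicates 1 to 4 of IgG-control. The groups did not overlap. With MIR100HG siRNA it read 104, 1849, 116 and 60 in HuR IPs and 45, 43, 54 and 47 in IgG IPs, so 3 HuR arrays lay under every HuR-control array and 1 above them all. Group means were 531 ± 217 and 52.3 ± 3.10 (SD, n = 4) with control siRNA and 532 ± 878 and 47.3 ± 4.79 with MIR100HG siRNA. After background correction and quantile normalization the HuR minus IgG difference was 4.02 ± 0.48 (log2, SE) with control siRNA and 2.60 ± 0.48 with MIR100HG siRNA. Without replicate 2 of HuR-MIR100HG these differences were 3.12 ± 0.35 and 1.75 ± 0.38. With median centring besides they were 4.40 ± 0.33 and 1.33 ± 0.36.

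CD44, the cell-surface receptor for hyaluronan, showed the same arrangement of arrays. Its probe (ILMN_1803429, NM_001001391) gave 87, 102, 106 and 63 in HuR-control, and it was detected on none of the IgG arrays, where intensities ran from 39 to 47. With MIR100HG siRNA the HuR IPs gave 59, 344, 57 and 48, with 3 of 4 detected. Replicates 1, 3 and 4 again lay under every HuR-control array. Because no IgG array detected the probe at p under 0.05, its enrichment is a lower bound. On the normalized scale it was computed against the lowest signal detected at p under 0.01 on each IgG array: at least 1.79-fold higher with control siRNA. With MIR100HG siRNA the bound fell under 1 and no fold is given (fitted differences of 1.38 ± 0.26 and 0.56 ± 0.26 on the log2 scale). The differences were 1.01 ± 0.09 and 0.19 ± 0.10 without replicate 2. With an offset of 50 in the background correction the first was 0.64, under the log2 of its bound (0.84). The CD44 bound and those below are for quantile normalization, an offset of 16 and all 16 arrays, unless replicate 2 is said to be left out.

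CDH2 encodes N-cadherin, the cadherin of mesenchymal and neural cells. Its probe (ILMN_1779228, NM_001792) read 168, 201, 194 and 108 in HuR-control and 84, 706, 75 and 44 in HuR-MIR100HG, of which the last was not detected. On the 8 IgG arrays it was never detected and read 37 to 44. With all 16 arrays normalized together, CDH2 was at least 3.92-fold higher on HuR than on IgG arrays under control siRNA. With MIR100HG siRNA it was at least 2.45-fold higher. The fitted differences were 2.54 ± 0.41 and 1.93 ± 0.41 on the log2 scale. When replicate 2 of HuR-MIR100HG was left out, the second bound was at least 1.68-fold and the second difference 1.28 ± 0.33, or 0.83 ± 0.27 with median centring.

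DCBLD2, a transmembrane protein with a discoidin domain, was the only gene with both of its probes past the filter, and both probes are designed on NM_080927. ILMN_2174127 read 137, 207, 155 and 94 in HuR-control and 59, 520, 60 and 52 with MIR100HG siRNA, against 38 to 47 on IgG arrays, none of which detected it. ILMN_1735499 read 101, 127, 104 and 71 in HuR-control and 63, 189, 60 and 57 with MIR100HG siRNA. On both probes replicates 1, 3 and 4 with MIR100HG siRNA lay under, and replicate 2 above, every HuR-control array. ILMN_1735499 was detected on 3 of 4 IgG arrays of either siRNA, at 46 to 59 over all 8. The bound for ILMN_2174127 was at least 3.27-fold with control siRNA and at least 1.13-fold with MIR100HG siRNA (fitted log2 differences 2.25 ± 0.32 and 0.74 ± 0.32). The second bound rested on replicate 2 of HuR-MIR100HG: without it the bound fell under 1 and no fold is given. The differences were then 1.66 ± 0.11 and 0.26 ± 0.12. The first bound, 1.71 on the log2 scale, was above that 1.66 and above the 1.21 fitted with an offset of 50. It therefore does not hold in those settings. For ILMN_1735499 the fit gave 1.26 ± 0.27 with control siRNA and -0.0034 ± 0.27 with MIR100HG siRNA, so the probes of this gene did not give the same size. The second of these values changed sign with the scaling of the arrays (0.71 after median centring, 0.76 with no scaling), and it was -0.10 ± 0.19 without replicate 2. The first was then 0.84 ± 0.18.

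THBS1, the matricellular protein thrombospondin-1, a ligand of CD47 and an activator of latent TGF-beta, lay near background on most arrays. Its probe (ILMN_1686116, NM_003246) read 66, 80, 73 and 56 in HuR-control and 46, 70, 46 and 44 in HuR-MIR100HG, where 1 of 4 arrays detected it. It was the only probe of the 8 for which replicate 2 of the latter group did not exceed every HuR-control array. IgG arrays read 38 to 49 with none detected. Under control siRNA THBS1 was at least 1.26-fold higher on HuR arrays (fitted log2 difference 0.87 ± 0.15), and the bound fell under 1 with MIR100HG siRNA (0.10 ± 0.15). The probe did not pass the filter without replicate 2 of HuR-MIR100HG.

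ITIH5, a secreted heavy chain of the inter-alpha-trypsin inhibitor family that binds hyaluronan, had the highest IgG-control mean of the probes past the filter (67 ± 12.7, SD, n = 4). DCBLD2 ILMN_1735499 was next, at 54.5 ± 2.4, and in IgG-MIR100HG it read 52.3 ± 5.3 against 51 ± 5.6 for ITIH5. The ITIH5 probe (ILMN_2235707, NM_001001851) was detected on all 4 IgG-control arrays, at 86, 61, 61 and 60, and on 1 of 4 with MIR100HG siRNA, at 59, 46, 49 and 50. HuR IPs read 227, 307, 307 and 189 with control siRNA and 77, 1896, 99 and 69 with MIR100HG siRNA. The HuR groups stood above their IgG groups without overlap on this probe. A dim probe designed on the same transcript, ILMN_1793695, did not show this with control siRNA: 51 ± 1.83 (SD, n = 4) in HuR-control and 52.8 ± 2.06 in IgG-control. With MIR100HG siRNA it read 54.3 ± 4.99 in HuR IPs and 48 ± 4.24 in IgG IPs. Under quantile normalization the fitted enrichment of ITIH5 was 2.41 ± 0.34 with MIR100HG siRNA and 1.84 ± 0.34 with control siRNA on the log2 scale, and the other 7 probes had the lower value with MIR100HG siRNA. The order turned with median centring (2.30 and 2.69) and with no scaling (2.35 and 2.70), where CCN2 alone was higher with MIR100HG siRNA. Without replicate 2 of HuR-MIR100HG the ITIH5 value with MIR100HG siRNA was 1.58 ± 0.23, or 0.96 ± 0.26 with median centring. With control siRNA it was then 1.40 ± 0.22, or 2.69 ± 0.24 with median centring.

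CCN2, the matricellular connective tissue growth factor, showed the smallest difference with control siRNA. Its probe (ILMN_1699829, NM_001901) read 55, 62, 62 and 58 in HuR-control against 61, 49, 48 and 52 in IgG IPs, and these groups overlapped. HuR-MIR100HG read 57, 105, 54 and 52. The fitted HuR minus IgG differences were 0.27 ± 0.18 and 0.01 ± 0.18 on the log2 scale, the first within 2 SE of 0. They were 0.22 ± 0.12 and -0.09 ± 0.13 without replicate 2 of HuR-MIR100HG. All 4 HuR-control arrays detected the probe, against 1 of 4 in IgG-control, 2 of 4 in IgG-MIR100HG and 1 of 4 in HuR-MIR100HG.

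**Figure D2:**
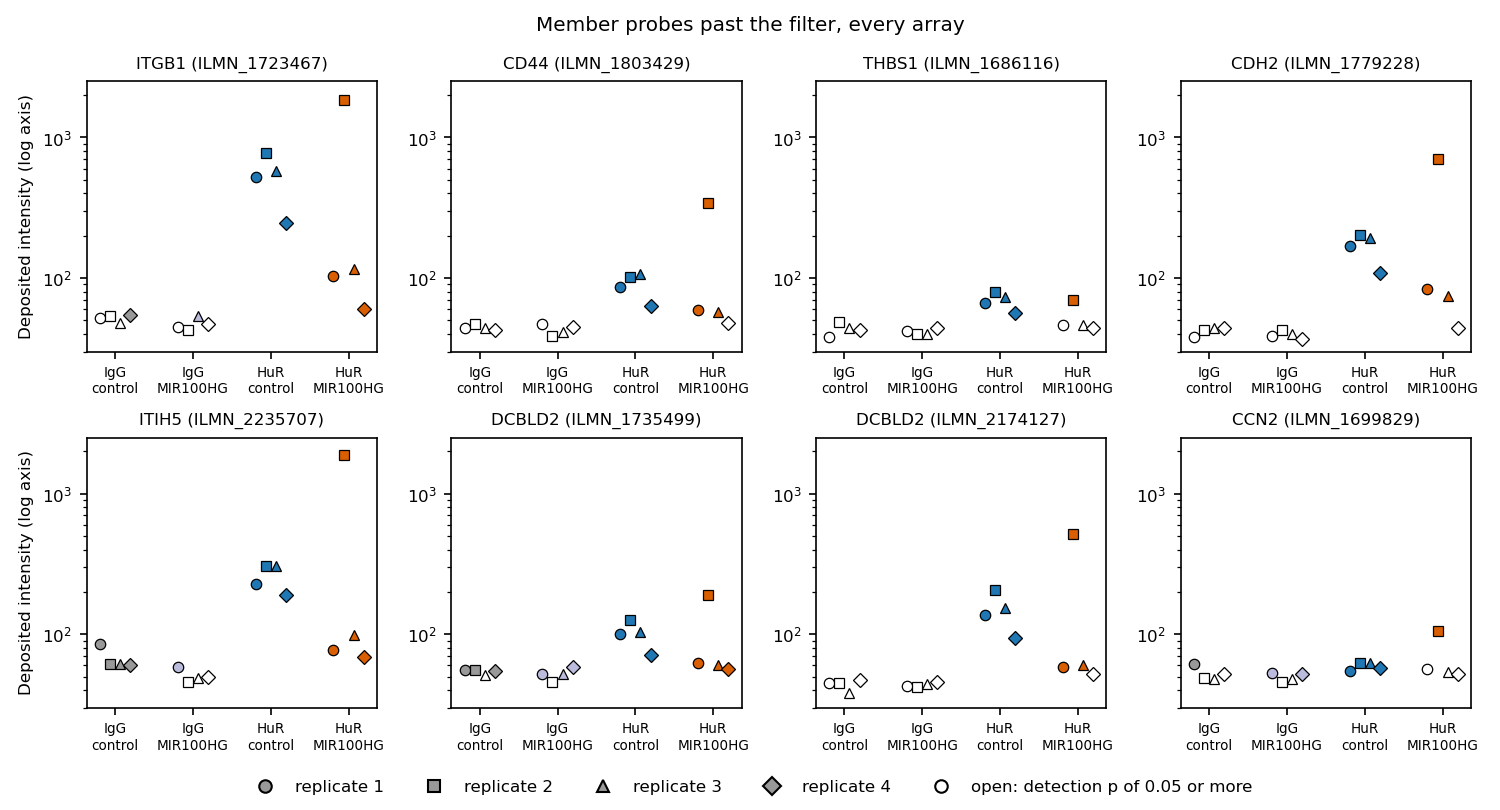
Deposited intensity (log axis) of the 8 probes past the filter on each of the 16 arrays, by immunoprecipitate and siRNA; marker shapes give the replicate number and open markers a detection p of 0.05 or more. In HuR-MIR100HG the square of replicate 2 (ITGB1 1849, ITIH5 1896) lies far above the other markers, while replicates 1, 3 and 4 lie under every HuR-control array for all probes but CCN2.

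With control siRNA, every HuR array read above every IgG array for 7 of the 8 probes, all but CCN2, while 25% of all probes past the filter did so. With MIR100HG siRNA this held for 5 of 8 (ITGB1, CD44, CDH2, ITIH5 and DCBLD2 ILMN_2174127) against 56.1% of all probes. The median HuR minus IgG difference of the 8 probes was 1.61 on the log2 scale with control siRNA and 0.65 with MIR100HG siRNA, beside -0.04 and 0.08 over the 1438 probes. Median centring moved the all-probe median with MIR100HG siRNA to 0.23 and leaving the arrays unscaled moved it to 0.28, and the median of the 8 probes was then 1.26 and 1.31. These numbers restate the choice of the genes and the filter. Without replicate 2 of HuR-MIR100HG THBS1 missed the filter. The medians of the other 7 probes were then 1.40 and 0.26, beside -0.06 and 0.03 over 1181 probes.

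**Figure D3:**
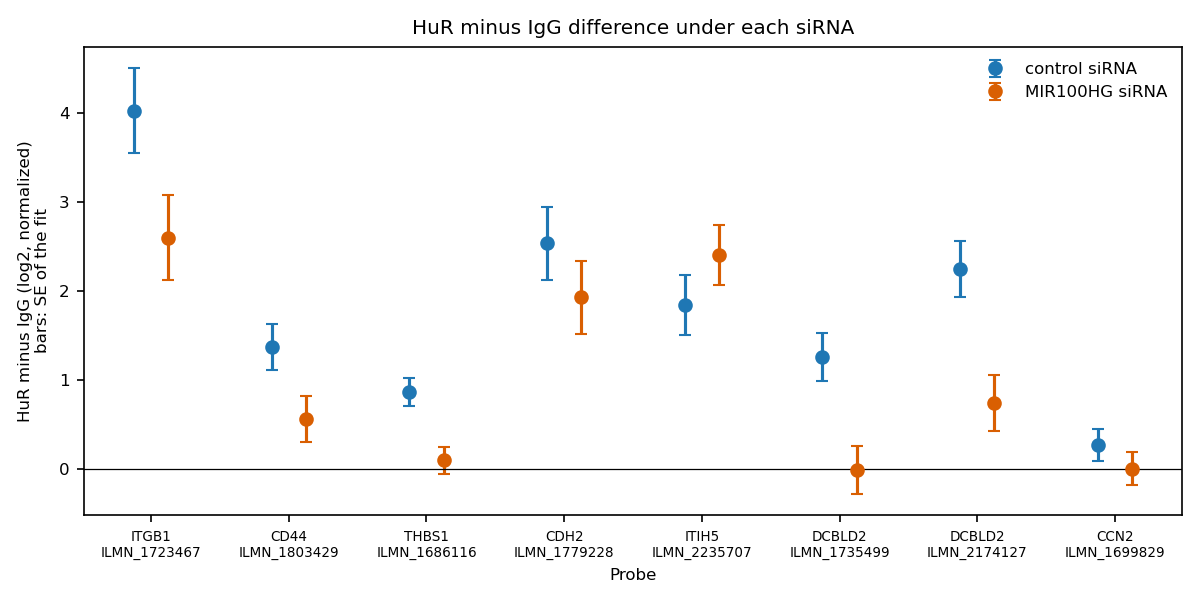
HuR minus IgG difference (log2 of normalized intensity, bars are the SE of the fit over 4 groups of 4 arrays) of the 8 probes with control siRNA (blue) and MIR100HG siRNA (orange). Values are under quantile normalization: with control siRNA ITGB1 lies at 4.02 and CCN2 at 0.27, and ITIH5 is the probe with the orange point above the blue one, an order that turned with median centring and with no scaling.

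In HuR IPs 3 of the 8 probes were lower with MIR100HG than with control siRNA: THBS1 at -0.77 ± 0.15 (log2, SE; limma adjusted p = 0.00464) and DCBLD2 at -1.46 ± 0.32 on ILMN_2174127 (adjusted p = 0.00715) and at -0.99 ± 0.27 on ILMN_1735499 (adjusted p = 0.0276). Of all 1438 probes 9.87% were called lower in this comparison. It was not used to choose the genes, but it shares the HuR arrays with the comparisons that were. The filter had admitted the 3 called probes mostly through HuR-control arrays, which favours lower calls, so their count is no support on its own. ITGB1 had -1.48 ± 0.48 (adjusted p = 0.0603), CD44 -0.78 ± 0.26 (adjusted p = 0.0673), CDH2 -0.60 ± 0.41 (0.364), CCN2 -0.28 ± 0.18 (0.338) and ITIH5 -0.31 ± 0.34 (0.569), and none of these passed. The median was -0.78 over the 8 probes and -0.02 over all. In intensity no member had all 4 HuR-control arrays above all 4 with MIR100HG siRNA (0.556% of all probes did), whereas 7 of 8 had at least 3 of the latter below every one of the former, against 27.1% of all probes. On normalized log2 values the same held for 6 of 8, against 35.2% of all probes: CCN2 came in, and CDH2 and ITIH5 dropped out. For CDH2, replicate 1 of HuR-MIR100HG lay above every HuR-control array there (6.47 to 6.82).

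The number of calls in HuR IPs turned on replicate 2 and on the scaling. Without replicate 2 of the MIR100HG siRNA group THBS1 no longer passed the filter and 4 of 7 probes were called lower: ITGB1 at -1.44 (limma adjusted p = 0.00914), CD44 at -0.79 (2.71e-05) and both DCBLD2 probes (1.04e-06 and 0.00582), against 24.7% of the 1181 probes then tested. CD44 and DCBLD2 ILMN_2174127 then passed the filter through HuR-control arrays alone, which favours such calls. With all arrays and either median centring or no scaling 0 of 8 were called (limma; 1 of 8, THBS1, at an unadjusted p under 0.05 in both), where 1.25% and 0.348% of all probes were called lower, and the sign of CCN2 turned (0.020 and 0.047, beside 0.03 and 0.05 for the median of all probes). With that replicate left out and the same scalings 7 of 7 were called lower, against 35.2% and 34.6% of all probes. The call of DCBLD2 ILMN_1735499 was also lost when replicate 1, 2 or 3 of HuR-control or replicate 1, 3 or 4 of HuR-MIR100HG was left out (adjusted p between 0.055 and 0.1). Without replicate 1, 2 or 3 of HuR-control THBS1 missed the filter as well and 1 call was left. No share of all probes is given for those settings, so that count is no result about the genes. With no filter, so that all 47231 probes were tested, THBS1 was called lower at -0.77 (limma adjusted p = 0.0171) and neither DCBLD2 probe was (adjusted p = 0.189 and 0.411), 1 of 8 against 0.0741% of all probes. With no filter and without replicate 2, a combination chosen after seeing the data, THBS1 (2.75e-05), CD44 (2.85e-05) and DCBLD2 ILMN_2174127 (1.15e-06) were called lower, 3 of 8 against 0.777% of all probes. In both settings the 8 are the probes that the filter keeps, while most of the 47231 probes fail it. Count and share are therefore not like for like, and the gap between them is no result about the genes. CDH2 had the opposite sign without replicate 4 of HuR-MIR100HG (0.040, and 0.037 in the difference between the enrichments described below).

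**Figure D4:**
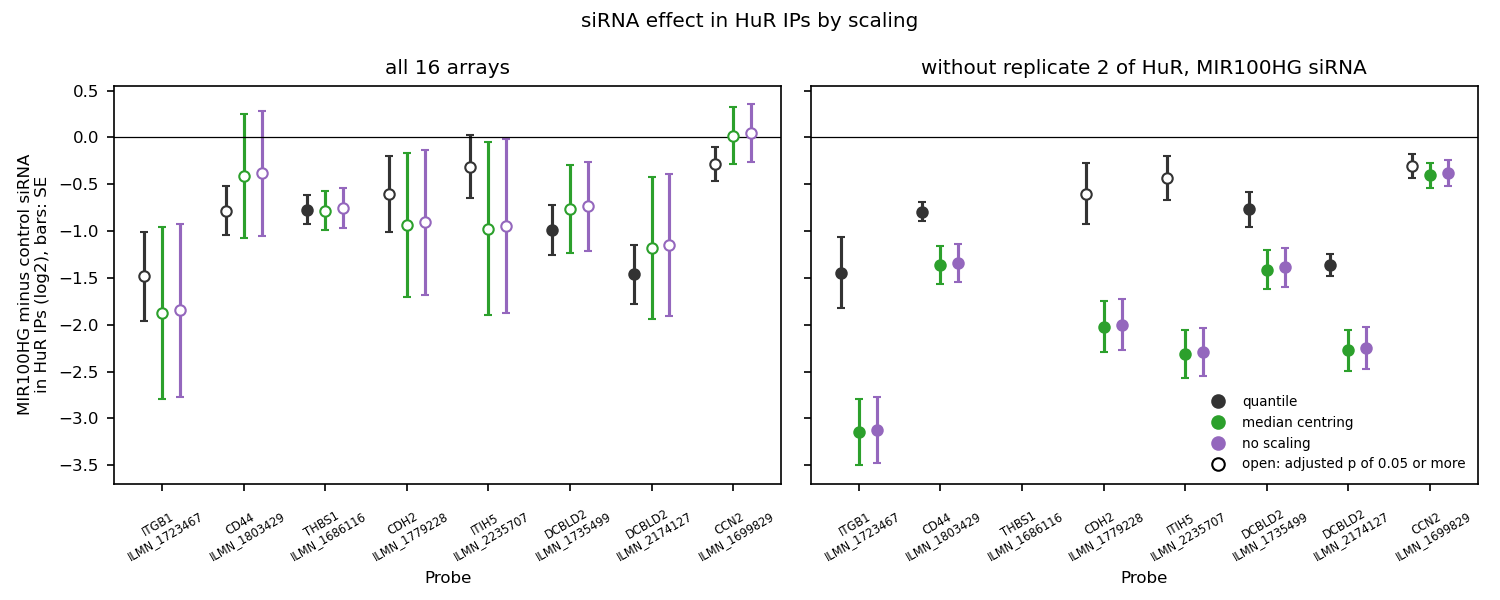
MIR100HG minus control siRNA difference in HuR IPs (log2, bars are the SE) of the 8 probes under quantile normalization, median centring and no scaling, with all 16 arrays (left) and without replicate 2 of HuR-MIR100HG (right, where THBS1 did not pass the filter). Filled points have an adjusted p under 0.05: with all arrays these are THBS1 and both DCBLD2 probes under quantile normalization alone, and on the right 7 of 7 probes under each of the other scalings.

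In IgG IPs the siRNA comparison called 0 of the 8 probes (limma, adjusted; 1, ITIH5, at an unadjusted p under 0.05), where 5.91% of all probes were called in either direction. ITIH5 had -0.88 ± 0.34 (adjusted p = 0.159), and the other 7 probes ran from -0.06 to 0.28 on the log2 scale. Its intensities on these arrays, given above, ran from 60 to 86 with control siRNA and from 46 to 59 with MIR100HG siRNA. When replicate 1 of IgG-MIR100HG was left out, ITIH5 was called lower at -1.29 (limma adjusted p = 0.00657), where 7.37% of all probes were called lower.

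The difference between the enrichments of both siRNAs, the question of the series, was called for 0 of the 8 probes (limma, adjusted over 1438 probes, of which 0.348% were called; 4 of 8 at an unadjusted p under 0.05). DCBLD2 had -1.50 ± 0.45 on ILMN_2174127 and -1.27 ± 0.38 on ILMN_1735499 (adjusted p = 0.135 for either), THBS1 -0.77 ± 0.22 (0.122), CD44 -0.81 ± 0.37 (0.359) and ITGB1 -1.42 ± 0.68 (0.381). CDH2 had -0.61 ± 0.58 (0.65), CCN2 -0.26 ± 0.26 (0.665) and ITIH5, the only probe above 0, 0.57 ± 0.47 (0.613). Its sign turned with median centring (-0.39) and with no scaling (-0.35), and so did that of CCN2 (0.041 and 0.076), while the median of all probes moved from -0.005 to 0.08 and 0.12.

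Without replicate 2 of HuR-MIR100HG the same comparison called 3 of 7 probes lower, CD44 at -0.82 (limma adjusted p = 0.000767) and DCBLD2 at -1.40 (6.72e-05) and -0.94 (0.0246), against 11.6% of all probes. These calls are no independent support: the probes were admitted through the HuR-control arrays, and the comparison is built from the HuR against IgG values that chose the genes. With no filter besides, CD44, THBS1 and DCBLD2 ILMN_2174127 were called lower (limma adjusted p = 0.000886, 0.00129 and 6.44e-05), against 0.303% of all probes. That share is over 47231 probes, most of which fail the filter, so it is not like for like with probes that the filter keeps. With median centring or no scaling in place of that, and the filter kept, 6 of 7 were called lower, all but CCN2, against 22% and 21.5% of all probes. A group of 3 arrays was then set against groups of 4. With all 16 arrays the same scalings called 0 of 8 (limma; 1 of 8 at an unadjusted p under 0.05), and 0% of all probes.

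The 8 probes varied together across the 16 arrays. The 28 pairwise Pearson correlations of normalized values lay between 0.40 and 0.98 with a median of 0.79, a description in which all pairs share the arrays, their brightness and the HuR against IgG contrast. In deposited intensity, replicate 2 of HuR-control was the highest or tied and replicate 4 the lowest for 6 of 8 probes, against 31% of all probes. On normalized values this did not hold for CDH2, highest on replicate 1 (6.82), or ITIH5, highest on replicate 4 (7.72). Outside the genes described here, those most like ITGB1 over the 16 arrays were AXL, a receptor tyrosine kinase (r = 0.98), POTEF, a close relative of actin whose probe cannot be assigned to it with certainty (0.98), and CCND2, a D-type cyclin (0.97). Among the genes described here, CDH2 had 0.98 with ITGB1. The outside genes most like the mean of the 8 probes were CNN3, a calponin (0.98), CRKL, an adaptor protein of focal adhesion signalling (0.98), and SRSF6, a splicing factor (0.97). AXL read 153 ± 36.1 (SD, n = 4) in HuR-control and 194 ± 255 with MIR100HG siRNA, with 51.5 ± 3.32 and 46.8 ± 1.5 in the IgG IPs.

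Other adhesion and matrix genes were mostly not measurable. A list of 203 genes (integrins, focal adhesion, cadherin junctions, adhesion receptors, matrix, matricellular proteins, hyaluronan metabolism, matrix remodelling) had a probe for 190, and 11 genes had a probe past the filter, with 0 of 15 other integrin genes among them. With control siRNA 5 of these 11 were higher on HuR than on IgG arrays and 0 lower (limma, adjusted; 6 at an unadjusted p under 0.05), against 22.3% of all probes called higher. PLOD2, a lysyl hydroxylase of collagen, rose from 54.8 ± 0.957 (SD, n = 4) to 164.5 ± 49.4 in intensity, a log2 difference of 2.07 ± 0.37 (limma adjusted p = 0.000601). SDC4, FBN2, CD81 and P4HA1 were detected at p under 0.01 on 0 of 8 IgG arrays and passed the filter through HuR arrays alone, so their calls and the count of 5 support nothing about the list. PLOD2 was detected at that p on 1 IgG array, and the 4 HuR-control arrays alone were enough for it to pass. Its call is therefore no independent support. With no filter 342 probes of the 190 genes were tested and 2 were called higher, 1 each of SDC4 and PLOD2, against 0.288% of all probes. With the filter, the heparan sulphate proteoglycan SDC4 had a fitted log2 difference of 0.88 ± 0.19 (limma adjusted p = 0.00307) and the tetraspanin CD81 0.60 ± 0.17 (0.0137). The fibrillin FBN2 had 0.55 ± 0.16 (0.0171) and P4HA1, a prolyl hydroxylase subunit of collagen synthesis, 0.47 ± 0.16 (0.0369). By lower bound, which carries no p, SDC4 was at least 1.36-fold higher, CD81 at least 1.15-fold and FBN2 at least 1.07-fold. P4HA1 has no fold, since its bound fell under 1. TES, CADM1, CTNND1, CTNNB1, PCDH10 and MFAP2 did not pass.

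With MIR100HG siRNA 0 of the 11 passed in HuR against IgG IPs (limma, adjusted; 1 at an unadjusted p under 0.05, PLOD2 at 1.07 ± 0.37, adjusted p = 0.14), where 3.06% of all probes were called higher. The medians of the 11 were 0.38 and 0.17 on the log2 scale, beside -0.04 and 0.08 over all probes. In HuR IPs 2 of the 11 were lower with MIR100HG than with control siRNA, against 9.87% of all probes: SDC4 at -0.72 ± 0.19 (limma adjusted p = 0.0267) and PLOD2 at -1.20 ± 0.37 (adjusted p = 0.0459). SDC4 passed the filter on HuR arrays alone and PLOD2 could pass on HuR-control alone, so these calls are no support on their own. Of the 11, 0 were called lower with median centring or no scaling. Without replicate 2 of HuR-MIR100HG, CD81 and PLOD2 were called lower, of 7 tested, against 24.7% of all probes. The difference between the enrichments passed for 0 of the 11 (1 at an unadjusted p under 0.05). With median centring or no scaling 0 of the 11 were called higher in HuR-control (3 at an unadjusted p under 0.05 in either), while over all probes the 320 higher and 78 lower calls became 12 higher (0.834%) and 0 lower. Without replicate 2 of HuR-MIR100HG, 7 of these genes were tested and CD81 and PLOD2 were called higher in HuR-control than in IgG-control, against 20.5% of all probes called higher. The count of 5 was 1 without replicate 1 and 2 without replicate 2 or 3 of HuR-control, settings for which no share of all probes is given.

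**Figure D5:**
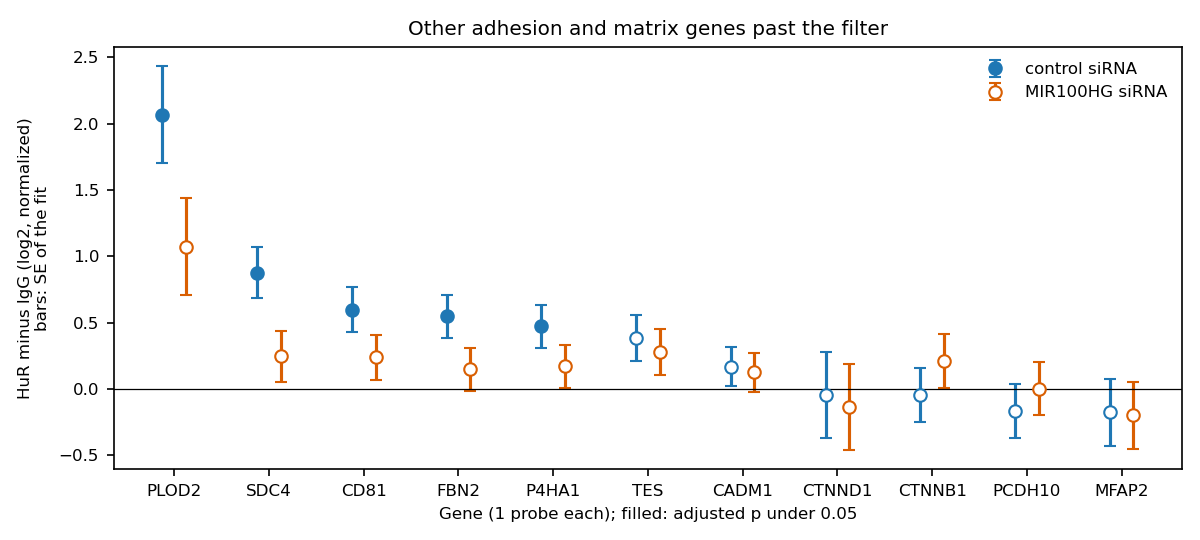
HuR minus IgG difference (log2 of normalized intensity, bars are the SE of the fit) of the 11 other adhesion and matrix genes past the filter, 1 probe each, with control siRNA (blue) and MIR100HG siRNA (orange). Filled points have an adjusted p under 0.05: PLOD2 at 2.07, SDC4, CD81, FBN2 and P4HA1 with control siRNA, and none with MIR100HG siRNA.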

How the data were processed

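RNA from IgG or HuR immunoprecipitates of U2OS cells was amplified by oligo-dT-primed reverse transcription and read on bead arrays, per the labels' protocols. Per the submitters' processing notes the authors used GenomeStudio 2011.1, and the deposited intensity values are linear and not normalized between arrays. The deposited detection p-values compare a probe with its array's negative controls, per the file headers. The series' deposited value table holds a score per probe whose scale, centring and origin the sources used here do not state; its columns have medians between -0.12 and 0.01. Of its 16 columns 15 followed the log2 intensity of the array they name (r of 0.997 or more across probes), and the other, at 0.0066, was left out. Probe names come from the platform's annotation with updated symbols: 30113 probes had 1 gene and 17118 had several or none. Coordinates are not given because the files name no genome build, and probe sequences were not analysed here.

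Intensities were background-corrected (normexp, whose negative controls were inferred from detection p, with an offset of 16), quantile-normalized and put on the log2 scale, and the 1438 probes past the filter (detection p under 0.01, 4 or more arrays) were fitted with limma 3.58.1 in R 4.3.3, with 4 group means and Benjamini-Hochberg adjustment over all of them at 0.05. Groups and replicate numbers came from the titles. The members, the gene lists and the comparisons were chosen with earlier results of these data known. Named were all member probes, all list genes past the filter, the 3 non-member genes most like ITGB1 and the 3 most like the member mean, and both label checks. The sources used here name no slides. P-values measure the spread between these samples, and the number of arrays limits the precision. Alternatives covered background, scaling, deposited scores, filter, probes per gene, array weights, groups in the fit, a replicate block and leaving out each array. The combination of no filter with replicate 2 of HuR-MIR100HG left out was chosen after seeing the data. The script was tested on simulated data. Same-numbered samples of 2 groups correlated between -0.16 and 0.27 in their deviations from the group means (3 of 16 above 0.1), so the numbers were not taken to pair samples. Figures were drawn with matplotlib 3.10.9.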

Additional observations from a re-analysis of the deposited data

Results flagged for a closer look

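Within groups of 4 arrays, the intensity of 1 array stood apart by Dixon's criterion in 10 of 32 groups tested (8 probes, 4 groups). Of these, 8 came from replicate 2 of HuR-MIR100HG (HuR IP, MIR100HG siRNA). Chance gives about 5% in a single test, but the 8 probes share the arrays. The 32 tests are therefore not independent, and their count is not to be set against that rate. That array was the highest of its group at 1849 for ITGB1, 344 for CD44, 706 for CDH2, 189 and 520 for the DCBLD2 probes ILMN_1735499 and ILMN_2174127, 70 for THBS1, 1896 for ITIH5 and 105 for CCN2. It also had 2592 detected probes against 563 to 824 in the rest of its group, and its part in the member values is given by the results without it. Over all probes past the filter 83.7% read higher on it than on every HuR-control array, as did 7 of the 8 member probes. Replicate 1 of IgG-control stood apart for CDH2, at 38, the lowest of its group and not detected, and for ITIH5, at 86, the highest of its group.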

How the results depend on the processing

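The median HuR minus IgG difference of the 8 probes with control siRNA (1.61) was 0.94 with an offset of 50, 1.10 without background correction, 2.08 with median centring, 2.10 with no scaling, 1.86 with quantile normalization within each IP type, 7.735 in deposited score units, 2.58 and 2.60 with median centring and no scaling once replicate 2 of HuR-MIR100HG was omitted, 1.20 with no filter once it was omitted, and 1.40 to 1.87 when each array was left out in turn. With MIR100HG siRNA (0.65) it was 3.71 in score units, 1.26 with median centring, 1.31 with no scaling, 0.31 with an offset of 50, 0.44 without background correction, 0.35 with array weights and 0.26 to 0.87 without each array. THBS1 missed the filter without replicate 2 of HuR-MIR100HG and without replicate 1, 2 or 3 of HuR-control. Filtered medians in those settings are over the other 7 probes. In the interaction 0 probes were called, 2 with normalization within IP type, 4 with array weights, 0 to 3 without each array, 3 with no filter and that replicate left out, and 6 in both combinations of that replicate left out with another scaling. In HuR IPs the siRNA comparison called 3 probes, 0 with median centring, 0 with no scaling, 5 within IP type, 1 with no filter, 5 with array weights, 1 to 4 without each array and 7 in both combinations. In IgG IPs the range without each array was 0 to 1. No share of all probes is given for normalization within IP type, array weights or most arrays left out. The same holds for several counts of the adhesion list that follow, and such counts are not results about the genes. The share called lower in HuR IPs itself moved, from 1.25% with median centring to 35.2% with that replicate also left out. Counts of member probes with no filter are of the 8 that the filter keeps. Of the adhesion list 5 genes were called with control siRNA, 0 with median centring, 0 with no scaling, 2 with no filter, 5 with no filter and that replicate omitted, 1 to 5 without each array and 3 in both combinations; with MIR100HG siRNA the range was 0 to 1, with 1 call without replicate 3 or 4 of HuR-MIR100HG.

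Signs turned for these single values, of which none had been called. The ITIH5 interaction was -0.39 with median centring, -0.35 with no scaling, -3.43 in scores, and -1.73 and -1.70 in the combinations. The HuR minus IgG difference of DCBLD2 ILMN_1735499 with MIR100HG siRNA was 0.71, 0.76, 0.33 (within IP type) and 1.07 (scores), and -0.17 to 0.35 without each array. CCN2 gave 0.041 and 0.076 in the interaction and 0.020 and 0.047 in HuR IPs with median centring and no scaling. Without each array the siRNA difference of DCBLD2 ILMN_1735499 in IgG IPs ran from -0.068 to 0.45, and for CDH2 the interaction ran from -0.93 to 0.037 and the HuR value from -0.93 to 0.040. The cause was not tested. Over all settings of single probes 1043 values kept direction and side of the threshold, 74 moved, 44 came to pass the threshold, 19 no longer did and 17 turned sign; sign changes between values that both lay within 1 SE of 0 are among those kept.

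The replicate number as a block, which does not pair the samples, gave 4 calls in HuR IPs in place of 3, with ITGB1 passing (limma adjusted p = 0.0484), and changed no other count. No share of all probes is given for that setting. No slide block was run. Most member probes lay near the array background, so folds and lower bounds hold on the background-corrected scale with an offset of 16 alone.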
